A study of Mus musculus with 12 samples.

Results

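The prolactin, growth hormone and STAT5 axis was followed here as 9 genes among the 24421 counted in mouse islets. They are the receptors Prlr and Ghr, the kinase Jak2, the transcription factors Stat5a and Stat5b, the feedback inhibitors Cish and Socs2, and the serotonin synthesis enzymes Tph1 and Tph2. The list was drawn up after Cish, Socs2 and Prlr had been seen lower in the knockout islets of these same libraries. The differences between genotypes of all 9 are therefore given as descriptions without a test, and their shared direction supports nothing further.

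Whole islets, the pancreas's clusters of hormone-secreting cells, were sequenced as bulk RNA after 6 weeks of a high-fat diet. In 6 libraries (BKO) the mice lacked the interleukin-22 receptor subunit Il22ra1 in β cells (Il22ra1βKO mice). The other 6 (Cre) came from Ins2Cre mice, which carry the Cre recombinase under an insulin promoter without the deletion. The high-fat diet was common to all 12, and no group on another diet, or without Cre, was analysed here. The labels give neither the age and sex of the mice nor the Ins2Cre line. Some insulin-promoter Cre transgenes are known to carry a human growth hormone minigene whose product acts on the prolactin receptor of β cells and raises Tph1. Whether the line used here does cannot be read from the labels. Whether each library is a separate animal is not given either, so any p-value measures the spread between these libraries.

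Prolactin, placental lactogen and growth hormone bind single-pass receptors that carry the kinase JAK2. The activated kinase phosphorylates STAT5A and STAT5B, which enter the nucleus and switch on target genes. Among these targets are CIS (Cish) and SOCS2, which bind the receptor complex and dampen the signal. In islets this axis is best known from pregnancy, when lactogens raise β-cell number and insulin secretion and strongly induce Tph1, the enzyme that starts serotonin synthesis. Serotonin then acts on neighbouring β cells. IL-22 signals mainly through STAT3, not STAT5.

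Gene reads per library ranged from 10356093 to 11902217 in BKO and from 11444273 to 12397139 in Cre. Il22ra1 itself held between 1 and 5 reads per library, 13 in all BKO and 16 in all Cre libraries, so whole-islet counts do not check the deletion. One library, Cre-1, had 27.3% of its reads set aside for low alignment quality, against 16.7% to 22.2% in the other 11. The defining β-cell genes were present throughout. Of 15 β-cell markers 14 had a negative log2 fold change (median -0.20), and their summed level ran from 25200 to 41600 CPM (TMM-scaled gene counts relative to library size) in BKO and from 30400 to 35900 CPM in Cre. All 8 α-cell markers (median 0.40) and all 15 endothelial markers (median 0.43) had positive ones. So had all 4 δ-cell (median 0.32), 11 of 12 stellate and pericyte (0.36), 10 of 11 acinar (0.55) and 7 of 10 duct markers (0.18), while 9 of 11 macrophage markers had negative ones (-0.37). The summed α-cell level was 12500 to 25500 against 9290 to 14600 CPM, and the summed endothelial level 659 to 956 against 530 to 752 CPM. The acinar sum varied most, from 1500 to 5280 in BKO and from 299 to 6720 CPM in Cre. The part of these shifts in the values below was not tested beyond the rescaled fits given there. In bulk islets, fewer cells of a type and less RNA per cell cannot be told apart.

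Over all 13583 genes tested with edgeR's quasi-likelihood test and Benjamini-Hochberg adjustment, 0% passed the adjusted threshold of 0.05 with a higher BKO level and 0% with a lower one; limma-voom also called 0, while DESeq2 called 160 higher and 54 lower. Leaving out BKO-4 gave edgeR 135 higher and 127 lower genes, and leaving out Cre-5 gave 105 and 5. Without adjustment, at p under 0.05, 8.7% of all genes were higher and 4.66% lower. The 6 BKO values lay wholly above the 6 Cre values for 0.331% of all genes and wholly below them for 0.177%. All 9 members were expressed well enough to be tested, with between 65 and 4352 reads per library. In 0 of the 9 were the genotypes fully separated. A log2 fold change below 0 was seen for 8 of the 9, and for 6415 of all 13583 genes, and the median was -0.275 against 0.0078 over all genes. Because the same contrast chose the members, nothing is read from these counts.

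**Figure D1:**
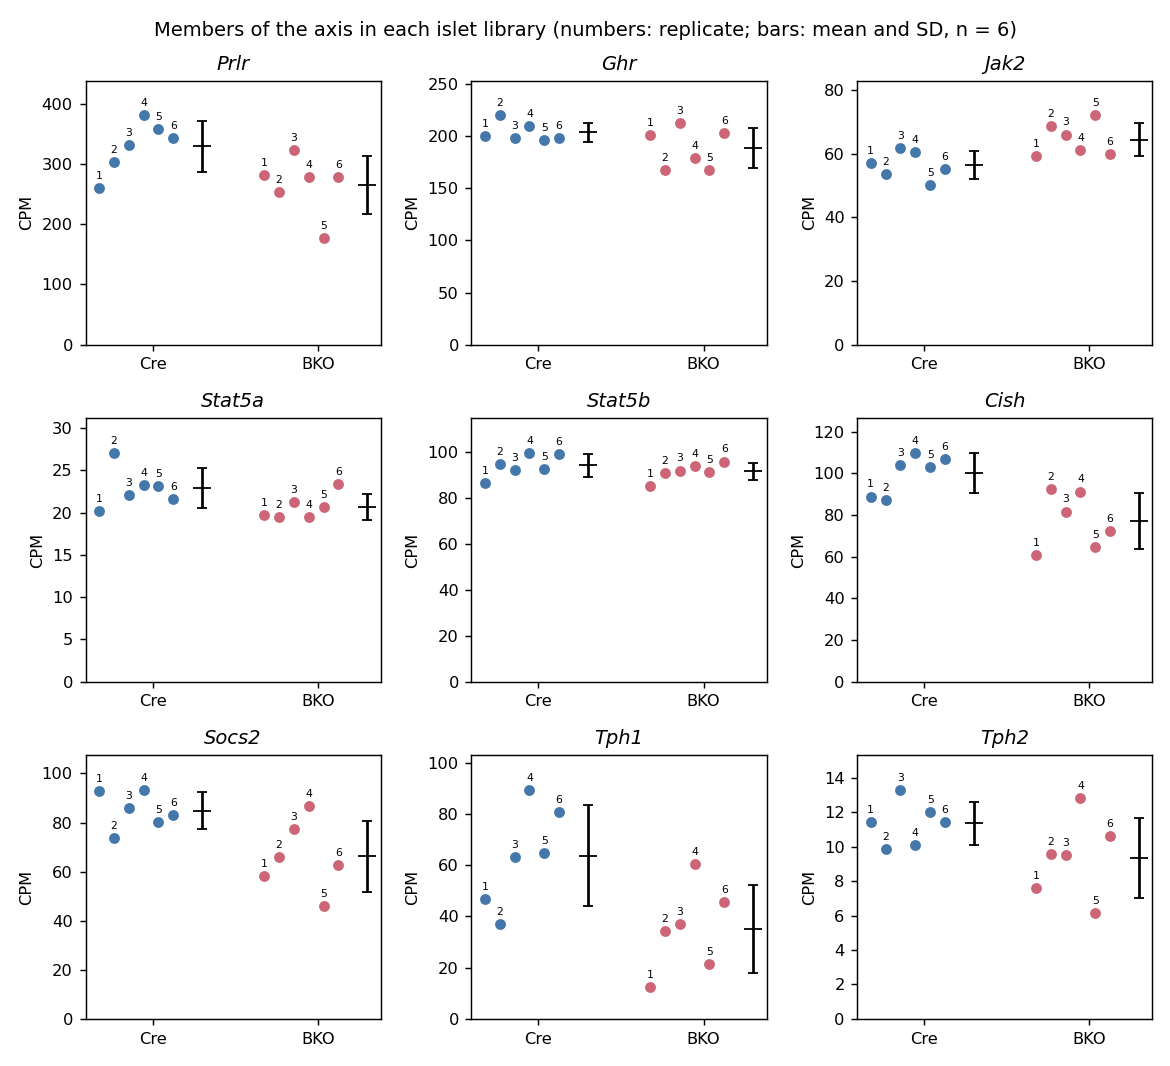
Each panel plots the level of a member (y axis, CPM scaled by TMM, from 0) in the 6 Cre and 6 BKO libraries; digits give the replicate number, and the black bars the mean and SD. Tph1 spans the widest relative range, from 12.4 to 89.5 CPM, while Stat5b stays between 85.1 and 99.6 CPM.

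The receptors were among the better expressed members. Prlr, the receptor for prolactin and placental lactogen, was at 177 CPM in the lowest BKO library, with a median of 279 and a highest value of 323 CPM. In Cre it ran from 260 through a median of 337 to 381 CPM. All 6 BKO libraries lay below the Cre mean, but only 2 lay below the lowest Cre library, which was Cre-1. The BKO mean was 266 ± 48.9 and the Cre mean 330 ± 42.5 CPM (SD, 6 libraries each, as for every mean below), a fold of 0.806 and a log2 fold change of -0.31 ± 0.126 (SE). The lowest value came from BKO-5, without which the log2 fold change was -0.23. Without Cre-1 it was -0.39. With the endothelial score as a covariate it was -0.08 ± 0.169 (SE). The same fit gave -0.38 ± 0.169 for Cish and -0.76 ± 0.597 for Tph1. Whether the genes differ in this was not tested, and these SE are larger than in the main fit. Ghr, the growth hormone receptor, was nearly level, at 189 ± 19.2 in BKO and 204 ± 9.52 CPM in Cre. Its BKO values fell into 3 libraries at or above 201 CPM and 3 at or below 179 CPM, and the latter were below every Cre library (196 to 220 CPM). The log2 fold change of Ghr was -0.11 ± 0.0629, and with the endothelial covariate 0.02.

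Prlr lies on the plus strand of chromosome 15 from 10177238 to 10349180 (mm10, GENCODE), and Ghr on the minus strand of the same chromosome from 3317760 to 3583492. Exons of Prlr overlap those of the gene model Gm21973 on the same strand. How the authors' counting assigned reads of that overlap is not stated.

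The promoters were searched for TTCNNNGAA, the palindromic element bound by STAT5 and by other STAT factors, because Cish is a textbook STAT5 target. The element reads the same on both strands, so each match counts for both; no other motif was searched. RefSeq windows (GRCm38.p6, 250 bases before to 50 after an annotated start) were at hand for 8 of the 9 members, 14 windows in all; Socs2 was not matched. Of 32851 such windows over all genes, 8.3% held at least 1 match and 0.457% held 2 or more. Among the members, matches were found in the Cish window, with 2, and in 1 of the 3 Prlr windows, with 1. The other 12 windows, those of Ghr, Jak2, Stat5a, Stat5b, Tph1 and Tph2 among them, did not hold these letters. The stretches with the matches are shown 5′ to 3′ on the plus strand, with each match in capitals:
Cish, chr9:107296649-107296678: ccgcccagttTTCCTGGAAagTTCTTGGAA
Prlr, chr15:10223746-10223845: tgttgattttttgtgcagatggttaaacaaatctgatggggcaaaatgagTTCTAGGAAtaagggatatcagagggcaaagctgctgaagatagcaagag
The Cish matches begin at bases 1 and 12 of the annotated RefSeq transcript. The Prlr match begins 110 bases before one of its annotated starts. These letters describe the windows; binding was not measured in these libraries.

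In the signalling core of the pathway the differences were small. Jak2, the kinase attached to both receptors, was the only member with a higher mean in BKO. Its BKO libraries lay at 59.1, a median of 63.5 and a highest value of 72.0 CPM, and its Cre libraries at 50.2, 56.2 and 61.7 CPM. All 6 BKO libraries were above the Cre mean, and the groups overlapped between 59.1 and 61.7 CPM. The log2 fold change was 0.19 ± 0.0651, with means of 64.4 ± 5.28 (BKO) and 56.4 ± 4.29 CPM (Cre). Stat5b was the steadiest member, at 91.5 ± 3.62 in BKO and 94.0 ± 4.96 CPM in Cre. Its log2 fold change was -0.04 ± 0.0487, and its spread within genotypes was at the 4.55th percentile of all tested genes. Stat5a had means of 20.7 ± 1.5 (BKO) and 22.9 ± 2.34 CPM (Cre), and its log2 fold change was -0.15 ± 0.079. The highest Stat5a value, 27.1 CPM in Cre-2, raised the Cre mean, and without that library the log2 fold change was -0.10.

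Stat5a and Stat5b are neighbours on chromosome 11. Stat5b runs from 100780731 to 100850724 on the minus strand and Stat5a from 100859351 to 100885169 on the plus strand, 8626 bases apart with no gene between them. The pair are close paralogs, and how many reads could be assigned to either was not tested. Exons of Stat5a also overlap those of Stat3 on the opposite strand, and Stat3 was at 474 ± 56.3 in BKO and 478 ± 28.2 CPM in Cre. Jak2 (plus strand, chromosome 19, 29251828 to 29313080) had no exon shared with another gene.

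Both feedback inhibitors had lower means in BKO, a change of -22.7% for Cish and -21.9% for Socs2. Cish, which encodes the SOCS-family protein CIS, ranged from 60.8 through a median of 76.9 to 92.7 CPM in BKO and from 87.2 through 103 to 110 CPM in Cre. All 6 BKO libraries lay below the Cre mean and 4 lay below every Cre library. The means were 77.2 ± 13.5 and 99.9 ± 9.48 CPM, a fold of 0.773 and a log2 fold change of -0.37 ± 0.103. With each library left out in turn it lay between -0.44 and -0.32. Scaled to β-cell marker counts it was -0.26, and with the endothelial covariate -0.38. Socs2, an inhibitor known above all for restraining growth hormone signalling, ranged from 46.1 through 64.5 to 86.9 CPM in BKO and from 73.6 through 84.5 to 93.4 CPM in Cre. Here 5 of 6 BKO libraries were below the Cre mean; the exception was BKO-4. The means were 66.2 ± 14.3 and 84.8 ± 7.66 CPM, a fold of 0.781 and a log2 fold change of -0.36 ± 0.124. Without BKO-4 the log2 fold change was -0.47, without BKO-5, the lowest library, -0.28, and with the endothelial covariate -0.18. The SD of both inhibitors was larger in BKO than in Cre, 17.5% against 9.49% of the mean for Cish and 21.7% against 9.03% for Socs2. This was not particular to them. It held for Prlr (18.4% against 12.9%), Ghr (10.2% against 4.67%), Jak2 (8.2% against 7.61%), Tph1 and Tph2 (24.8% against 11.1%). Stat5a (7.24% against 10.2%) and Stat5b (3.95% against 5.28%) went the other way. The difference in spread was not tested.

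Cish occupies bases 107296026 to 107302784 of chromosome 9, plus strand. Its exons overlap Gm17040 and Gm17041 on the opposite strand, and since no source states whether counting used strand, reads of those parts cannot be told apart. Socs2 occupies bases 95385362 to 95417180 of chromosome 10, minus strand, and had no exon shared with another gene.

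Tph1 had the lowest fold of the members, and both serotonin synthesis enzymes had the widest spread within genotypes on the log2 scale. Tph1, tryptophan hydroxylase of peripheral tissues and the hallmark of lactogen action on β cells, ranged from 12.4 through a median of 35.5 to 60.4 CPM in BKO. In Cre it ranged from 37.2 through 64.1 to 89.5 CPM. All 6 BKO libraries were below the Cre mean and 4 were below every Cre library. The other 2, BKO-4 at 60.4 and BKO-6 at 45.5 CPM, lay among the lower Cre libraries. The means were 35.1 ± 17.1 and 63.8 ± 19.7 CPM, a fold of 0.551 and a log2 fold change of -0.86 ± 0.353. The spread of Tph1 within genotypes was at the 98.1st percentile of all tested genes; its SD was 48.6% of the mean in BKO and 30.9% in Cre. Its log2 fold change lay between -1.10 without BKO-4 and -0.69 without BKO-1, the lowest library. Tph2, the form best known from serotonin neurons of the brain, was low, with 65 to 167 reads per library. The means were 9.37 ± 2.32 (BKO) and 11.3 ± 1.26 CPM (Cre), and the log2 fold change was -0.28 ± 0.144. Of its 6 BKO libraries 4 lay below every Cre library, while BKO-4 at 12.8 CPM lay above the Cre mean. Mast cells are another source of Tph1. Of 7 mast cell markers 6, among them Cpa3, Cma1 and Mcpt4, averaged below 0.3 CPM. The remaining marker, Kit, had a log2 fold change of 0.19. The sum of the list, nearly all of it Kit, ran from 12.6 to 19.6 CPM in BKO and from 11.9 to 19.1 CPM in Cre. The part of mast cells in the Tph1 reads was not tested.

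Tph1 lies on chromosome 7 from 46644641 to 46672537 and Tph2 on chromosome 10 from 115078641 to 115185022, both on the minus strand, and neither had an exon shared with another gene.

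**Figure D2:**
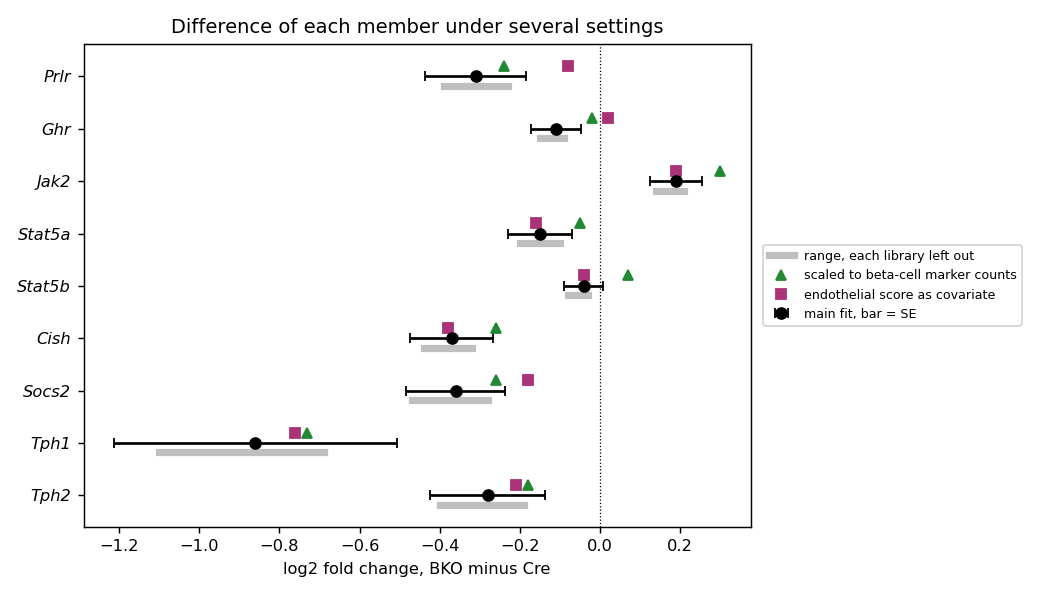
For each member the x axis gives the log2 fold change of BKO minus Cre: black points with SE bars are edgeR's estimates with TMM scaling, grey bars the range over the 12 fits that each leave out 1 library, green triangles the fit scaled to β-cell marker counts and purple squares the fit with the endothelial score. Cish, Socs2, Tph1 and Tph2 stay below 0 in each of these, Prlr comes to -0.08 with the endothelial score, and Ghr and Stat5b cross 0 in 1 fit each.

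The members' direction was compared across 21 other fits. All 21 reuse these libraries and the contrast that chose the members, so a kept sign is no independent support. Prlr, Stat5a, Cish, Socs2, Tph1 and Tph2 had a log2 fold change below 0 in all 21 and Jak2 above 0 in all 21. Ghr was above 0 only with the endothelial score and Stat5b only when libraries were scaled to their β-cell marker counts (0.07). That scaling, which is set largely by abundant transcripts such as Iapp, moved the median of all genes from 0.0078 to 0.1067. Relative to it, Stat5b at 0.07 was below the typical gene, and Jak2 at 0.30 above it. Endothelial markers were higher in BKO themselves, so that term and genotype share part of their variation.

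Per kilobase of exon, Ghr and Prlr led the members in the Cre libraries and Stat5a and Tph2 came last. The levels were 22.5 ± 1.05 CPM per kilobase for Ghr and 21.5 ± 2.77 for Prlr (SD, n = 6), whose ranges overlapped. Stat5b followed at 17.0 ± 0.896, its highest library above the lowest of Prlr, and Cish at 15.6 ± 1.48, again with overlapping ranges. Jak2 at 11.2 ± 0.853, Tph1 at 10.3 ± 3.19 and Socs2 at 8.90 ± 0.804 formed the next group, in which Tph1 spanned both neighbours. Tph2 was at 3.94 ± 0.437 and Stat5a at 3.21 ± 0.328, also overlapping. In this order Socs2 and Tph2 were the only neighbours whose Cre ranges did not overlap, apart from Cish and Jak2. The order depends on the length used: divided by the longest transcript, Ghr was at 48.8 and Prlr at 33.3, Socs2 rose to 20.0 beside Cish at 21.3, and Tph2 at 4.32 fell below Stat5a at 5.79.

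**Figure D3:**
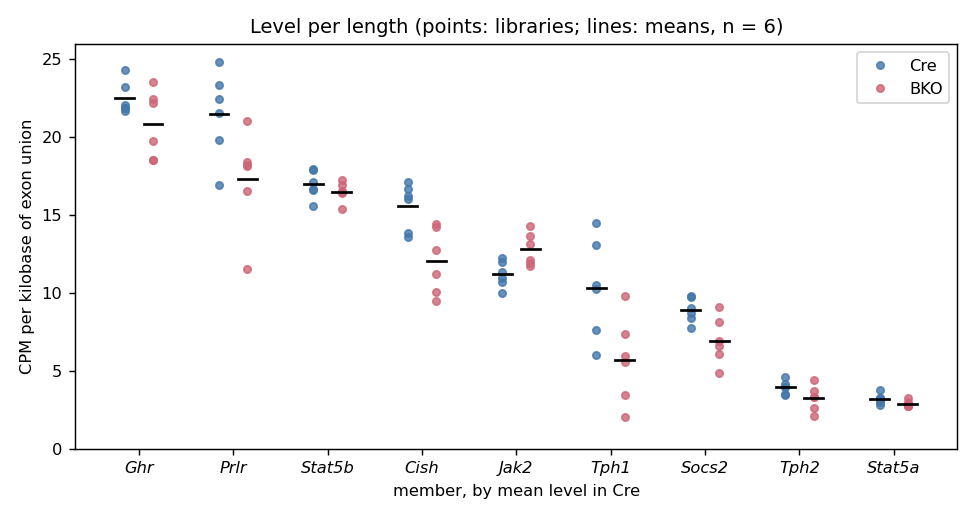
The y axis gives CPM per kilobase of the union of exons for each member, ordered along the x axis by its mean in Cre; points are libraries (blue Cre, red BKO) and lines the means of 6. In Cre the receptors stand at the top with 22.5 and 21.5, and Tph2 and Stat5a at the bottom with 3.94 and 3.21.

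Whether the members vary together was asked within each genotype, since that does not use the difference by which they were chosen. Of 6 relations among Cish, Socs2 and Prlr, 0 passed after Benjamini-Hochberg adjustment. Within Cre, Cish and Prlr had Pearson's r = 0.87 (exact permutation p = 0.0236, adjusted 0.142) and Spearman's rho = 0.77 (exact permutation p = 0.103, adjusted 0.308, n = 6), with r = 0.62 without the 2 libraries farthest from the median. Within BKO the same pair had r = 0.35 and rho = -0.20 (exact permutation p = 0.575 and 0.714, adjusted 0.69 and 0.714). Cish and Socs2 had r = 0.77 within BKO (exact permutation p = 0.075, adjusted 0.167; rho = 0.77, p = 0.103, adjusted 0.308; r = 0.98 without the 2 farthest). Within Cre they had r = 0.33 (exact permutation p = 0.501, adjusted 0.69; rho = 0.60, p = 0.242, adjusted 0.483). Socs2 and Prlr had r = 0.78 within BKO and -0.03 within Cre (exact permutation p = 0.0833 and 0.94, adjusted 0.167 and 0.94; rho = 0.31 and 0.20, p = 0.564 and 0.714, both adjusted 0.714). In BKO that pair rests largely on BKO-5, the lowest library for both genes, and without the 2 libraries farthest from the median r was 0.61. Scaled to β-cell marker counts, Socs2 and Prlr within BKO had r = 0.88 (exact permutation, adjusted p = 0.0333). That scaling divides both genes by the same marker sum, and values that share a divisor tend to correlate. Nothing is therefore read from this value.

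All 36 pairs of members were then compared over the 12 libraries after the mean of each genotype had been subtracted, a step added after the data were seen. None of the 36 passed the adjustment, by Pearson's r or by Spearman's rho. The highest r was between Cish and Tph1, 0.84 (exact permutation within genotypes, p = 0.00263, adjusted 0.0945; rho = 0.80, p = 0.00608, adjusted 0.179). It was 0.79 within BKO, 0.97 within Cre, and 0.70 without the 2 libraries farthest from the median. Tph1 and Stat5b were at 0.71 (exact permutation p = 0.00734, adjusted 0.132; rho = 0.71, p = 0.00992, adjusted 0.179; 0.54 without the 2 farthest). Socs2 and Tph2 were at 0.79 (exact permutation p = 0.019, adjusted 0.228; rho = 0.55, p = 0.107, adjusted 0.481), but at 0.30 without the 2 farthest libraries. The 6 pairs among Cish, Socs2, Tph1 and Tph2, grouped after their values were seen, lay between 0.66 and 0.84, but between 0.30 and 0.70 without the 2 farthest libraries. Those 2 were set for each pair by 1 of its genes, so they can differ between pairs. Within BKO they lay between 0.71 and 0.90. Within Cre 4 of the 6 lay between 0.14 and 0.33, Socs2 and Tph1 were at 0.49, and Cish and Tph1 at 0.97. Scaled to β-cell marker counts, 18 of the 36 pairs passed by Pearson's r, all of them positive, and 6 by Spearman's rho; values that share a divisor tend to correlate, and the part of this was not tested. Against the summed β-cell, α-cell, endothelial and acinar markers, 0 of 36 relations passed (smallest exact permutation p = 0.0463 for Ghr with β-cell markers, r = 0.73, adjusted 0.741; rho = 0.73, p = 0.0173, adjusted 0.621; r = 0.60 without the 2 farthest).

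**Figure D4:**
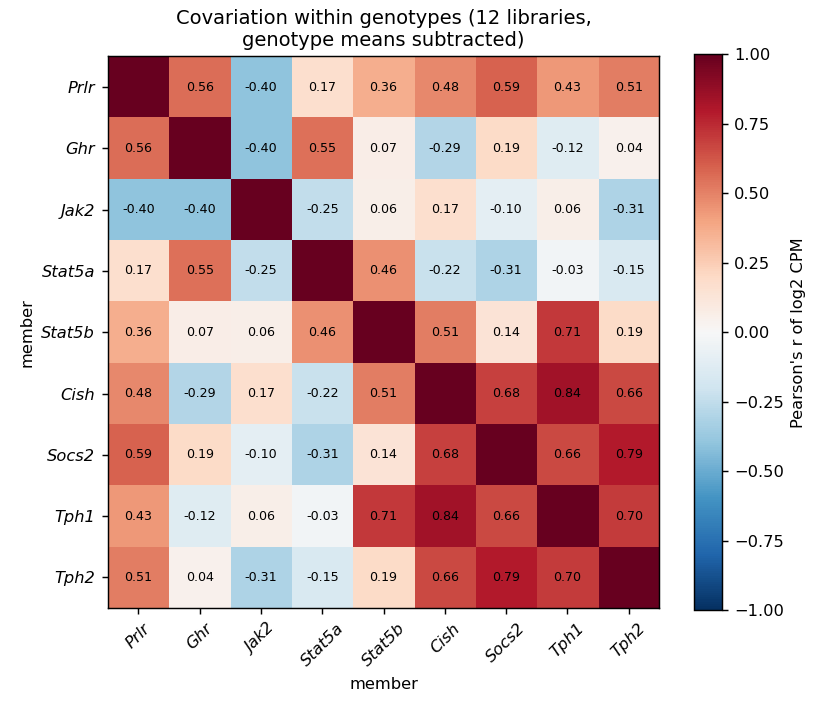
The grid gives, for each pair of members on the x and y axes, Pearson's r of log2 CPM over 12 libraries with genotype means subtracted, on a colour scale from -1 to 1. The block of Cish, Socs2, Tph1 and Tph2 runs from 0.66 to 0.84 (0.30 to 0.70 without the 2 farthest libraries of each pair, and 0.14 to 0.33 within Cre for 4 of its 6 pairs), and Jak2 stays at or below 0.17 with every other member.

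Likeness was ranked among 12003 other genes with a mean log2 CPM of at least 1. Predicted gene models and genes with Rik or similar clone names had been left out of these. Those most like each of the 3 genes that prompted the list were ranked by the same centred r over 12 libraries. Among the closest to Cish were Chp1 at 0.93, Map7d2 at 0.92, and Soat1 (a cholesterol-esterifying enzyme) and Slc2a13 at 0.91. Tph1 ranked 37th for Cish, Socs2 402nd and Prlr 1482nd. Closest to Socs2 were Fmo1 (a flavin monooxygenase) and Cradd at 0.96, followed by Tmed5, Gbp8 and Tpd52 at 0.93. Cradd lies on the same strand of chromosome 10, from 95174746 to 95324133, at 61228 bases from Socs2. Tph2 ranked 133rd for Socs2, Cish 396th, Tph1 513th and Prlr 757th. Closest to Prlr were Prepl at 0.94, Fan1 at 0.91, Crb1 and Twsg1 at 0.90, and Mbtps2 at 0.88. The best-placed member for Prlr was Socs2 at 542nd, followed by Ghr at 680th, Tph2 at 943rd and Cish at 1119th. These are descriptions; libraries share depth and cell makeup across all genes.

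The rest of the pathway was described by 6 further lists, with medians between -0.049 and 0.091. Among these lists edgeR called 0 genes after adjustment over all genes, DESeq2 called 1 (Ehhadh), and limma-voom called 0. Of 17 listed ligands and further receptors in the files, 7 could be tested. The ligands were close to absent, with 4 reads of Prl, 2 of mouse Gh, 0 of Prl3b1 and 24 of Prl3d1 summed over all 12 libraries, where 3 reads, the floor used here, correspond to 0.238 to 0.284 CPM per library. None of the 7 tested genes had an unadjusted p under 0.05 (8.7% of all genes were higher and 4.66% lower), and the median was 0.032. Crlf2 was at 0.10 ± 0.0833 and Il2rg at 0.27 ± 0.178.

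Of the other JAKs and STATs, 7 were tested (median -0.007). At an unadjusted p under 0.05, 1 was higher and 0 were lower (8.7% and 4.66% of all genes). The higher gene was Jak3, a kinase of lymphoid cytokine receptors, at 52.8 ± 11.7 (BKO) against 40.4 ± 5.35 CPM (Cre). Its log2 fold change was 0.39 ± 0.138 (edgeR adjusted p = 0.254), and 0.26 with the endothelial covariate. Of the 6 BKO libraries 5 were above the Cre mean. Jak1, the partner kinase of the IL-22 receptor, was level (-0.01 ± 0.0441), as was Stat3 (-0.01 ± 0.0716). Stat6 was at 0.08 ± 0.0578.

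Among 18 further SOCS, PIAS and phosphatase genes the median was 0.034. At an unadjusted p under 0.05, 2 were higher and 1 was lower (8.7% and 4.66% of all genes). Socs3, the inhibitor typically induced by STAT3, had a higher BKO mean, at 93.9 ± 25.2 in BKO and 65.4 ± 13.8 CPM in Cre (log2 fold change 0.52 ± 0.192, edgeR adjusted p = 0.279), and it came to 0.16 with the endothelial covariate. Of the 6 BKO libraries 5 were above the Cre mean. Ptpn2, a phosphatase that acts on JAKs and STATs, was at 57.0 ± 3.2 against 48.6 ± 6.21 CPM (0.23 ± 0.0753, edgeR adjusted p = 0.206; 6 of 6 above the Cre mean). The lower gene was Ptpn6 (-0.15 ± 0.0614, edgeR adjusted p = 0.30), named after its value was seen.

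Genes known as STAT5 or growth hormone targets had positive values in 14 of 18 cases, against 7168 of 13583 over all genes. Their median was 0.091, with 4 higher and 1 lower at an unadjusted p under 0.05, where all genes had 8.7% higher and 4.66% lower. Pim3 and Pim1, kinases induced by STAT factors, were at 40.2 ± 5.0 against 33.1 ± 1.85 CPM (0.28 ± 0.078, edgeR adjusted p = 0.166) and at 20.0 ± 4.16 against 15.7 ± 1.19 CPM (0.35 ± 0.116, edgeR adjusted p = 0.206), each with 5 of 6 BKO libraries above the Cre mean. Pim1 came to -0.02 with the endothelial covariate and Pim3 to 0.07. The others, named after their values were seen, were Pim2 (0.11 ± 0.0471) and Myc (0.31 ± 0.142) among the higher and Igfals, whose product carries IGF-1 in blood, among the lower (-0.40 ± 0.132, 101 ± 20.0 against 133 ± 20.3 CPM). Ccnd2, the cyclin of β-cell proliferation, was level (-0.01 ± 0.056). Igf1, the main growth hormone target of liver, was too low to be tested, with 76 reads in all.

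Of 14 tested genes of the islet's response to lactogens in pregnancy, 9 had negative values, against 6415 of 13583 over all genes, with a median of -0.043. At an unadjusted p under 0.05, 1 was higher and 2 were lower (8.7% and 4.66% of all genes). Ehhadh, a peroxisomal fatty acid oxidation enzyme, ranged from 29.5 to 46.6 CPM in BKO and from 42.5 to 55.0 CPM in Cre, and all 6 BKO values were under the Cre mean. Its log2 fold change was -0.39 ± 0.0994 (edgeR adjusted p = 0.152, DESeq2 adjusted p = 0.0306, limma-voom adjusted p = 0.0553). Over all alternatives the adjusted p of Ehhadh ran from 0.0103 to 0.93; without BKO-4 it passed with edgeR (adjusted p = 0.0202). Ivd, an enzyme of leucine breakdown, was at -0.31 ± 0.123, and was named after its value was seen. Tnfrsf11b, a decoy receptor induced by lactogens and named outside the rule, was at 160 ± 59.7 against 190 ± 24.8 CPM (-0.24 ± 0.253). The other 5 of the 14 tested genes had positive values, up to 0.40. Proliferation genes of this list were scarce, with Mki67 at 2.69 ± 0.653 and 2.37 ± 0.672 CPM.

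The other serotonin genes gave mixed values. Of 22 listed, 10 were tested, with a median of -0.049. At an unadjusted p under 0.05, 1 was higher and 0 were lower (8.7% and 4.66% of all genes). Of the 10, 6 had negative and 4 had positive values. Ddc, which completes serotonin synthesis, was at 192 ± 40.4 against 217 ± 13.0 CPM (-0.18 ± 0.114). Slc18a1, a vesicular monoamine transporter, was at 62.1 ± 26.6 against 82.5 ± 11.9 CPM (-0.41 ± 0.277). Both lie outside the rule by which genes were named. With Tgm2 below, the positive ones were Slc18a2 (0.26 ± 0.198), Gch1 (0.03 ± 0.0512) and Maoa (0.05 ± 0.0813). Qdpr, which regenerates the hydroxylases' cofactor, was at -0.10 ± 0.0586 (edgeR adjusted p = 0.495) and at -0.01 with the endothelial covariate. The higher gene was Tgm2, a transglutaminase that can couple serotonin to proteins, at 0.66 ± 0.288 (edgeR adjusted p = 0.356), and it came to -0.09 with the endothelial covariate. The receptors known from pregnant islets were low: Htr2b had 91 reads, Htr3a 59 and Htr1d 7 over all 12 libraries.

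**Figure D5:**
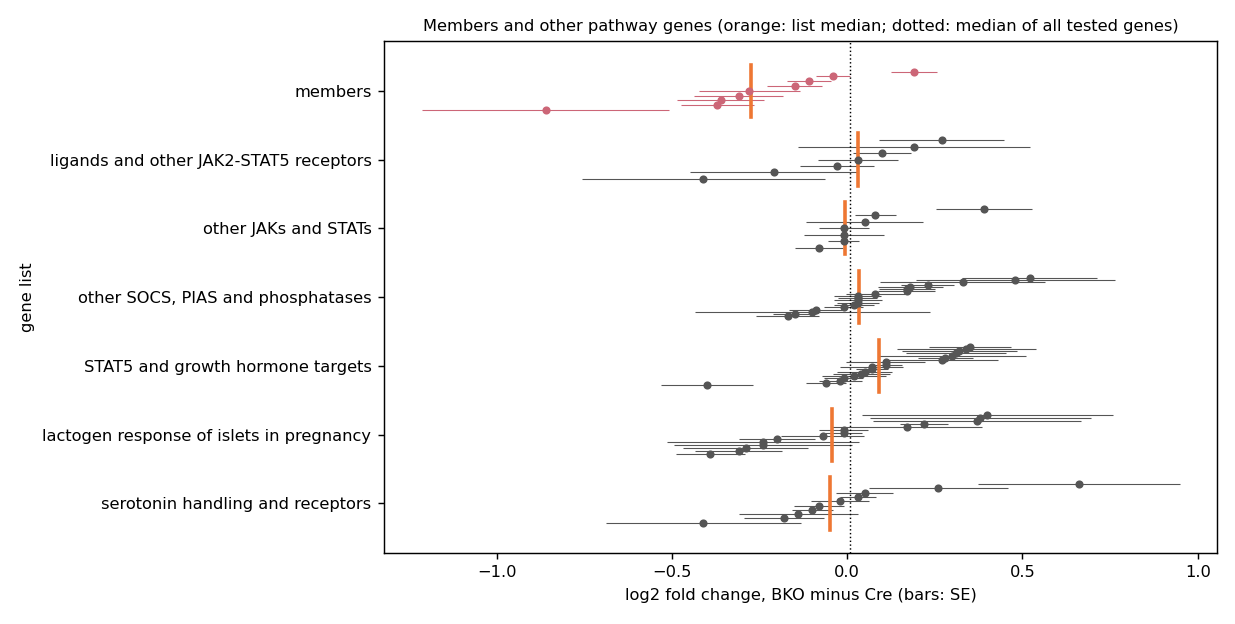
The x axis gives the log2 fold change of BKO minus Cre with SE bars for the members (red) and the tested genes of 6 further lists on the y axis (grey); orange lines are list medians and the dotted line the median of all genes, 0.0078. List medians lie between -0.049 and 0.091, against -0.275 for the members, which were chosen from this contrast.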

How the data were processed

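Per the submitters' processing notes, reads (paired-end, per the labels' protocols) were aligned with HISAT2 2.0.5 to mm10 and counted with HTSeq. The sources used here do not state the HTSeq version, annotation or strand setting. Each library's deposited file holds unnormalized read counts made by the authors, 1 row per gene symbol, with 5 summary lines that name no gene (34.7% to 45.8% of counted reads) and were left out of library sizes and tests. A series-wide table, in CPM, of the same libraries was not used. Coordinates and lengths come from GENCODE M21 (GRCm38, which is mm10), promoter windows from RefSeq.

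The test was edgeR 4.0.16 (R 4.3.3): filterByExpr, TMM, robust glmQLFit and glmQLFTest, with Benjamini-Hochberg adjustment at 0.05 over 13583 genes. CPM use TMM-scaled sizes. Correlations use log2 CPM (prior count 2) and exact two-sided permutation over all orders of 6 libraries, or 518400 orders within both genotypes. The 2 libraries farthest from the median were found from only 1 gene of each pair, or from the marker sum. Libraries extreme only in the other gene were kept, and the 2 can differ between pairs. Members and lists were chosen with earlier results of these data known. Named genes are the members, the 2 with the smallest p in each list with a mean log2 CPM of at least 1, and the 5 most like Cish, Socs2 and Prlr. Genes marked as named after their values were seen lie outside this rule. So do others given in the text, among them Jak1, Stat3, Ccnd2, Igf1, Tnfrsf11b, Mki67, Ddc, Slc18a1, the ligands and the serotonin receptors. Results for 2 genes that this rule names are not reported here. Alternatives were RLE, TMM without acinar genes, β-cell marker scaling, other count filters, DESeq2 1.42.0, limma-voom (limma 3.58.1), the replicate number as a block, an endothelial covariate and each library left out. The script was tested on simulated data. No 2 libraries of a genotype matched within counting noise (chi-square over its degrees of freedom at least 4.84), so none was treated as a library deposited more than once. More reads per gene give less counting error, which is largest for Tph2.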

Additional observations from a re-analysis of the deposited data

Results flagged for a closer look

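In 1 of 42 groups of 6 libraries, over the members and named pathway genes, a single library stood far from the rest. Tgm2 was at 42.6 CPM in Cre-5, where the next highest Cre library was at 22.1 CPM, a gap of 0.756 of the whole range, past the limit of Dixon's test. By chance about 1 group in 20 is marked in this way. No group of the 9 members was marked.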

How the results depend on the processing

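The counts of genes called higher and lower, 0 and 0 with edgeR, were 160 and 54 with DESeq2 and 292 and 72 with the replicate block. With each library left out they ran from 0 to 135 higher and from 0 to 127 lower; the highest counts came without BKO-4 (135 and 127) and without Cre-5 (105 and 5), and 5 and 0 were called without BKO-3 and 1 and 5 without Cre-1. The cause was not tested. RLE, TMM without acinar genes, β-cell scaling, both other filters, limma-voom and the endothelial covariate called 0 in both directions. The labels do not say that replicate numbers pair the libraries, and 4 of 6 numbers deviated together across genotypes (r from 0.194 to 0.264, each matching its own number best), while the other 2 had r of -0.072 and -0.047, so the block is not the main fit. With the replicate block Ehhadh (adjusted p = 0.0103) and Pim3 (0.0362) passed. With the endothelial covariate Il2rg turned to -0.11, Pim1 to -0.02 and Tgm2 to -0.09. Among the correlations, β-cell scaling gave 0.88 for Socs2 and Prlr within BKO, now past the threshold, and 0.38 within Cre, with the sign turned. Both genes are then divided by the same marker sum, and such values tend to correlate. Without the 2 libraries farthest from the median, Cish and Socs2 within Cre were at 0.76, Cish and Prlr within BKO at 0.74, and Socs2 and Prlr within Cre at -0.97, on 4 libraries each. Depth limits the statements on Tph2 and on the ligands and serotonin receptors, which held few reads.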

Other observations

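BKO-1 was lowest of all 12 for Tph1 (12.4 CPM), Cish (60.8 CPM) and Stat5b (85.1 CPM), and had the highest summed levels of β-cell and α-cell markers (41600 and 25500 CPM). BKO-5 was lowest for Prlr (177 CPM), Socs2 (46.1 CPM) and Tph2 (6.14 CPM) and highest for Jak2 (72.0 CPM), with the lowest β-cell (25200 CPM) and the highest endothelial sum (956 CPM). BKO-4 was the BKO library with the highest Socs2 (86.9 CPM), Tph1 (60.4 CPM) and Tph2 (12.8 CPM). Their part in the differences between genotypes is given by the values with each of them left out.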
